A study of Mus musculus with 6 samples.

Results

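The heat shock chaperones of mouse proximal colon are described here through 10 genes: Hspa8, Hspb1, Hsp90aa1, Hsp90ab1, Hspa1b, Hsph1, Dnajb1, Hspd1, Hspe1 and Hsf1. Every probe set whose platform annotation gives one of these symbols was taken, which found 19 of the 22626 probe sets other than controls, for 8 of the 10 genes. Hsp90ab1 and Hsf1 matched none in that annotation and are not analysed here. The proximal colon of 6 mice gave total RNA for 6 expression arrays, 3 of wild-type animals and 3 of animals labelled Mthfd1/+, which carry a BayGenomics gene trap in 1 copy of Mthfd1, an enzyme of folate one-carbon metabolism. All mice were 8 weeks old and had eaten the AIN-93G control diet for 5 weeks after weaning at 3 weeks of age. The labels call the arrays of a genotype biological replicates, and the sources used here give neither strain, sex nor the site of the trap. The series concerns Mthfd1 as a modifier of intestinal tumours, and its design compares the untreated colon of these genotypes. As a check of the labels, Mthfd1 at its brightest probe set read 949.9, 838.6 and 881.4 in wild-type and 453.1, 509.6 and 549.4 in heterozygous arrays, which do not overlap.

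Heat shock proteins keep other proteins folded. Hspa8, the constitutive cytosolic HSP70, and its stress-inducible relative Hspa1b bind unfolded stretches in cycles driven by ATP; J proteins such as Dnajb1 start the cycle, and Hsph1, an HSP110, releases the nucleotide. Hsp90aa1 acts later, on clients that are already partly folded, while Hspb1, a small heat shock protein that is abundant in muscle, holds proteins without using ATP. Hspd1 and Hspe1 form the chaperonin chamber and lid of the mitochondrial matrix. Many of these genes are induced together by the heat shock factor Hsf1 in stressed cells. Hsf1 binds inverted repeats of the short unit GAA, the heat shock element.

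The promoter letters show which of these genes carry such an element close to the start of transcription. RefSeq windows (GRCm38.p6) were at hand for 6 of the 10 genes. The 250 bases before the start were searched for 2 adjoining units, written GAANNTTC or TTCNNGAA, each of which reads the same on both strands. Such a match is present in 12.8% of all 32851 windows, so a single one is common. The 3 promoters printed first belong to Hspb1, whose signal was lower in heterozygous colon, and to Hsph1 and Hspa1b, whose means were higher. The last line is the stretch between the head-to-head genes Hspd1 and Hspe1. All run 5′ to 3′ on the strand of the gene, the last on that of Hspe1, and capitals mark the matches.
Hspb1: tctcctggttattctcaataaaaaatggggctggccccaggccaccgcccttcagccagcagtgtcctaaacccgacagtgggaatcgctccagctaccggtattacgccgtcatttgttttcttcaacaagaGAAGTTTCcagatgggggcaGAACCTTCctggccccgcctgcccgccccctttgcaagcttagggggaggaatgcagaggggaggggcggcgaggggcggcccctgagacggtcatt
Hsph1: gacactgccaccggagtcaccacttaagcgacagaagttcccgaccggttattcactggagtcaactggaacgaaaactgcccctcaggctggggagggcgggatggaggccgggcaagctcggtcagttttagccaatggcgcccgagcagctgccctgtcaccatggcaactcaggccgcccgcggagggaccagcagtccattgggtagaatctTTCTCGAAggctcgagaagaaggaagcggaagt
Hspa1b: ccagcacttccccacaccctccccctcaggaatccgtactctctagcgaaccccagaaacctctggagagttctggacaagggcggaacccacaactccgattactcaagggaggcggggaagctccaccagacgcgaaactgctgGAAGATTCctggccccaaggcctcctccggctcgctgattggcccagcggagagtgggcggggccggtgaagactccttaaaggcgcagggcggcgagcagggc
Hspe1 and Hspd1: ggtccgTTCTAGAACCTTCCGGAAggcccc

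The Hspb1 window (chr5:135887669-135887918, plus strand) holds 2 matches, which begin 117 and 97 bases before the start. Hsph1 (chr5:149636337-149636586, minus strand) has 1 match beginning 33 bases before the start, and Hspa1b (chr17:34959239-34959488, minus strand) has 1 beginning 104 bases before it. The element of Hspd1 and Hspe1 (chr1:55088053-55088082) is a longer run, with 3 overlapping matches of 2 units that together also give the 3-unit forms TTCNNGAANNTTC and GAANNTTCNNGAA. A 3-unit form is present in 0.466% of all windows. It begins 89 bases before the start of Hspe1, and the annotated start of Hspd1 on the other strand lies 216 bases from that of Hspe1. A second annotated Hspd1 start and both Dnajb1 starts have no match in their windows, which says only that these letters are not there.

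No member probe set differed between the genotypes after adjustment over all 13576 tested probe sets. Signals here are linear intensities scaled to 1 level per array, compared as log2(signal + 16), and the test is limma's with Benjamini-Hochberg adjustment at a threshold of 0.05. All 19 member probe sets were bright enough to be tested, with mean signals from 337 to 8270, between percentiles 65.3 and 98.8 of the array. Adjusted p ran from 0.348 to 0.993 in limma. Of the whole array, 0% of probe sets passed. At an unadjusted limma p under 0.05, 7 of the 19 lay higher in heterozygous colon and 2 lay lower, beside 3.12% and 2.56% of all tested probe sets. Genotypes were without overlap for 4 higher and 1 lower, beside 5.27% and 5.1% of all. The fold change was positive for 16 of the 19 and negative for 3, beside 50.7% and 49.3% of all, and its median was 0.32 on the log2 scale, beside 0.00 for all tested probe sets. Several of these probe sets measure 1 transcript, so they are not independent of each other.

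The higher values came mainly from heterozygous replicates 2 and 3. Heterozygous replicate 2 gave the highest of the 6 signals at 12 of the 19 member probe sets, against 10.6% of all tested probe sets, and the lowest at 0. Replicates 3 and 1 gave the highest signal at 2 and 1 of the 19, against 20.4% and 14.7% of all tested probe sets. Leaving aside Hspb1, whose means were lower, heterozygous replicate 2 lay above every wild-type array at 14 of 17 probe sets, replicate 3 at 12 and replicate 1 at 5. The share of all tested probe sets was not computed for these counts, so they describe the members only. The median deviation from the wild-type mean over the 19 was 0.05 in heterozygous replicate 1, 0.54 in replicate 2 and 0.31 in replicate 3 on the log2 scale. Without heterozygous replicate 2 the median fold change of the 19 was 0.20 with 14 positive, and the number at an unadjusted limma p under 0.05 was 3 higher and 1 lower, beside 2.61% and 2.78% of all tested probe sets in that fit. Without heterozygous replicate 1 it was 10 higher and 1 lower, beside 3.93% and 3.4%, and 3 of the 19 passed limma's adjusted threshold, as did 38 probe sets in all.

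**Figure D1:**
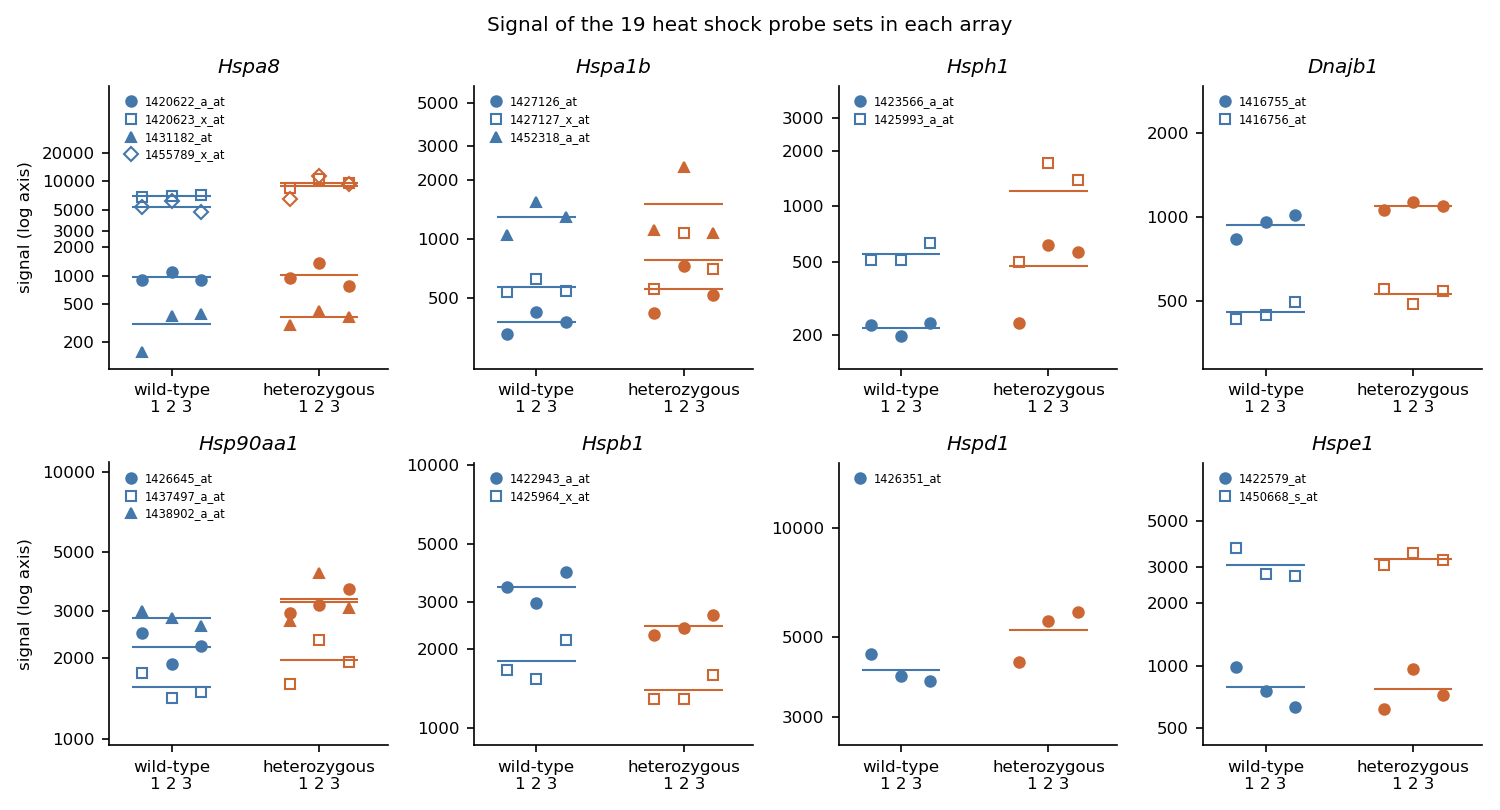
Signal of each of the 19 member probe sets in the 3 wild-type (blue) and 3 heterozygous (orange) arrays, on a log axis, with horizontal lines at group means and a marker shape per probe set. Hsph1 at both probe sets is higher in heterozygous replicates 2 and 3 and not in replicate 1, while all 3 heterozygous arrays lie below the wild-type arrays at the brighter Hspb1 probe set.

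**Figure D2:**
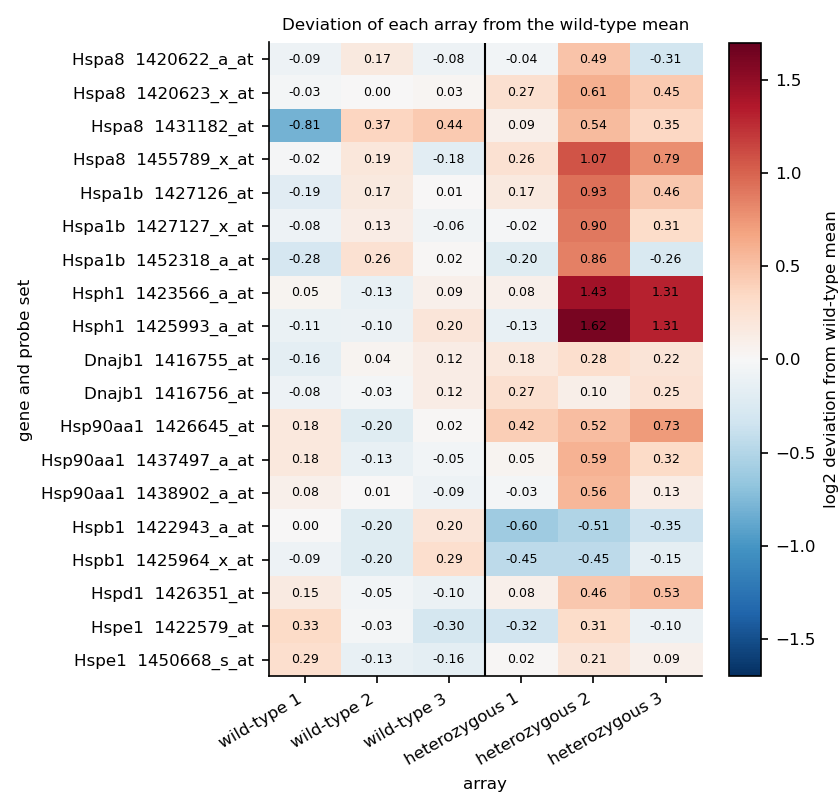
Deviation of each array (columns) from the wild-type mean, in log2(signal + 16), for each member probe set (rows), with red above and blue below. The column of heterozygous replicate 2 is red except at Hspb1, and the deepest red is at Hsph1, 1.43 and 1.62.

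Hspa8, which folds new and damaged proteins in every cell, was read by 4 probe sets that did not give 1 answer. The brightest, 1420623_x_at, read 6844.5, 6966.7 and 7151.8 in wild-type replicates 1 to 3 and 8433.2, 10655.1 and 9566.7 in the heterozygous replicates. All 3 heterozygous arrays were above all wild-type arrays, and the wild-type arrays lay close together. The means were 6988 ± 155 and 9552 ± 1111 (SD, n = 3 each), a ratio of 1.37, with a log2 difference of 0.44 (SE 0.09; 95% interval 0.24 to 0.65). Its limma adjusted p of 0.348 was the lowest of the members, and its exact permutation p was 0.1, the smallest that 3 against 3 arrays can give.

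The other bright Hspa8 probe set, 1455789_x_at, read 5297.7, 6132.1 and 4748.6 in wild-type and 6405.7, 11245.8 and 9273.3 in heterozygous arrays. The groups again did not overlap, but heterozygous replicate 1 stood only just above wild-type replicate 2. The log2 difference was 0.70 (SE 0.18), with a limma adjusted p of 0.640, and without heterozygous replicate 1 it was 0.93 with a limma adjusted p of 0.0391. Without replicate 2 it was 0.52 (adjusted p = 0.883), and without replicate 3 it was 0.66 (adjusted p = 1). Both bright probe sets bear the suffix _x_at, which the array's maker gives to sets with probes that can also bind other, similar transcripts. The part of such transcripts in these signals was not tested.

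The dimmer Hspa8 probe sets overlapped between the genotypes. Probe set 1420622_a_at read 904.9, 1090.8 and 912 in wild-type and 936.2, 1364.5 and 773.8 in heterozygous arrays, so that heterozygous replicates 2 and 3 held the highest and the lowest value. Its log2 difference was 0.04 (95% interval -0.40 to 0.49), which spans the difference at the brightest probe set. Probe set 1431182_at read 157, 373.9 and 393.6 in wild-type and 305.2, 423.5 and 368.7 in heterozygous arrays, with wild-type replicate 1 far below the rest. Its log2 difference was 0.32 (95% interval -0.36 to 1.01), and -0.08 without wild-type replicate 1.

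Hspa1b, the inducible cytosolic HSP70, had higher means in heterozygous colon at all 3 probe sets, with overlapping groups at each. Probe set 1427126_at read 324.5, 419.8 and 374.9 in wild-type and 418.4, 723.6 and 515.8 in heterozygous arrays. Heterozygous replicate 1 fell within the wild-type range, and replicate 2 was the highest. The log2 difference was 0.52 (95% interval 0.07 to 0.96; limma adjusted p = 0.814). Probe set 1427127_x_at had 0.40, from 565 ± 48.2 to 776 ± 264 (SD, n = 3 each). Without heterozygous replicate 2 these values were 0.31 and 0.15, and without replicate 1 they were 0.70 and 0.61. The brightest, 1452318_a_at, had 0.13, with heterozygous replicate 2 at 2338.7 and the other two at 1114.1 and 1069.3, and -0.23 without replicate 2. The near-identical neighbour Hspa1a was read by 1 probe set with a log2 difference of 0.19, and it was also highest in heterozygous replicate 2, at 407.3. Signal from Hspa1a and Hspa1b may be shared between their probe sets, which was not tested.

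Hsph1 showed the widest difference of the members. This HSP110 protein recharges HSP70 and is strongly induced by heat. At 1425993_a_at it read 509.4, 513 and 635.4 in wild-type and 501.3, 1723.9 and 1389.2 in heterozygous arrays. At 1423566_a_at it read 226.8, 197.9 and 233.4 in wild-type and 232.2, 617.4 and 566.9 in heterozygous arrays. At both, heterozygous replicate 1 lay within or just below the range of the wild-type arrays, while replicates 2 and 3 were above all of them by more than 1 log2 unit from the wild-type mean. The log2 differences were 0.93 (SE 0.38) and 0.94 (SE 0.31), the largest of the members. Their limma adjusted p was 0.821 and 0.737 over all arrays. Without heterozygous replicate 1 the values were 1.47 and 1.37, with limma adjusted p of 0.0170 and 0.0159. Without replicate 2 they were 0.59 and 0.70 (adjusted p = 0.960 and 0.928), and without replicate 3 they were 0.75 and 0.76 (adjusted p = 1 for both).

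Some other measures had the same split of the heterozygous arrays. Of 7 listed T-cell markers 3 were tested, and 3 others lay under the signal filter of 95.8. Ccl5 read 118.7 to 217.1 in wild-type arrays, and 151.5, 1123.2 and 1714.1 in heterozygous replicates 1, 2 and 3. Cd3g read 111.9 to 128.5 in wild-type arrays, and 113.4, 231.2 and 303 in those replicates. Cd3d had a wild-type mean of 92.9, under the filter, and was tested only because of its heterozygous values, so these are left out here. No tested T-cell marker was at 0 in any array. The endoplasmic reticulum chaperone Hspa5 read 4971.8 to 5727.8 across wild-type colon and 5319.2, 7151.5 and 7308.3 in heterozygous replicates 1 to 3 at its brightest probe set. Another tested Hspa5 probe set read 1514.2 to 1748.3 in wild-type and 1625.7, 2286.9 and 1826.6 in heterozygous arrays. There replicate 3 was only just above the wild-type range. Hsp90b1, the HSP90 of that compartment, did not have this split, at 1673.1 to 1791.4 in wild-type and 1660.9, 2268.4 and 1617.9 in heterozygous colon. Summed ileal marker signal did not have this split either. Of the heterozygous arrays it was high in replicate 2 only, at 10312 against 965 and 1486 in replicates 1 and 3. Wild-type arrays had 479 to 14570. The part of these differences in the Hsph1 values was not tested. In whole tissue, more cells of a type and more RNA per cell cannot be told apart.

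Dnajb1, the J protein that hands clients to inducible HSP70, had small differences. Probe set 1416755_at read 834.6, 961.6 and 1021.1 in wild-type and 1064.7, 1138.7 and 1096.3 in heterozygous arrays, which do not overlap. The means were 939 ± 95.3 and 1100 ± 37.1 (SD, n = 3 each), a ratio of 1.17, with a log2 difference of 0.23 (95% interval -0.04 to 0.50) and a limma adjusted p of 0.910. Probe set 1416756_at had 0.20, with heterozygous replicate 2 at 490.5, just under wild-type replicate 3 at 497.5. Here heterozygous replicate 2 did not stand out as it did for Hsph1 and Hspa1b.

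Hsp90aa1, the inducible cytosolic HSP90 that matures kinases and steroid receptors, was read by 3 probe sets of differing outcome. Probe set 1426645_at read 2494.2, 1905.6 and 2231 in wild-type and 2949.3, 3157.6 and 3642.3 in heterozygous arrays. The genotypes were separate, and heterozygous replicate 1 lay with the other two. The log2 difference was 0.56 (SE 0.13; 95% interval 0.27 to 0.84), with a limma adjusted p of 0.494. The others had 0.32 at 1437497_a_at and 0.22 at 1438902_a_at, with overlapping groups and 95% intervals that include 0; without heterozygous replicate 2 they had 0.19 and 0.05. At 1438902_a_at, heterozygous replicate 2 read 4176.6, while replicates 1 and 3 read 2769.5 and 3094.9 against 2646.4 to 2998.7 in wild-type. Hsp90aa1 lies on chromosome 12 in GRCm38.p6, as Mthfd1 does.

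Hspb1 was the member with lower signal in heterozygous colon. This small heat shock protein binds actin filaments and unfolded proteins. Probe set 1422943_a_at read 3428.1, 2978.5 and 3924.3 in wild-type and 2258.7, 2391.1 and 2685.9 in heterozygous arrays. Every heterozygous array was below every wild-type array. The means were 3444 ± 473 and 2445 ± 219 (SD, n = 3 each), a ratio of 0.71, with a log2 difference of -0.49 (SE 0.12; 95% interval -0.76 to -0.21) and a limma adjusted p of 0.609. Probe set 1425964_x_at read 1667.2, 1542.6 and 2163.2 in wild-type and 1293.3, 1294.1 and 1593.8 in heterozygous arrays. Its groups overlapped by 1 array on each side, with a log2 difference of -0.35 (95% interval -0.69 to -0.01), and -0.21 without wild-type replicate 3. Both probe sets were highest in wild-type replicate 3.

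Smooth muscle is rich in Hspb1, and 7 of its 9 tested markers were also highest in wild-type replicate 3, beside 22.5% of all tested probe sets. So were 5 of the 6 tested goblet-cell markers. The summed signal of the smooth muscle markers reached 48362, 43944 and 59945 in wild-type replicates 1 to 3 and 53231, 43280 and 47006 in heterozygous replicates 1 to 3, so the groups overlapped. Of the 9, 4 had positive and 5 negative fold changes, beside 51.5% and 48.5% of all tested genes. Their median was -0.01, with a range from -0.40 for Des, the muscle intermediate filament, to 0.27 for Smtn, an actin-binding protein. The part of muscle content in the Hspb1 values was not tested.

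The mitochondrial chaperonin genes, which share the promoter stretch printed above, gave unequal estimates. Hspd1, the chamber subunit, read 4483, 3883.6 and 3755.4 in wild-type and 4256.6, 5536.4 and 5833.6 in heterozygous arrays. Heterozygous replicates 2 and 3 were above all wild-type arrays and replicate 1 was within their range. The log2 difference was 0.36 (95% interval 0.06 to 0.65; limma adjusted p = 0.794). Hspe1, the lid subunit, read 3689.8, 2761.4 and 2713.8 in wild-type and 3058.9, 3498.8 and 3229.8 in heterozygous arrays at 1450668_s_at, where wild-type replicate 1 was the highest of all. Its log2 difference was 0.11 (95% interval -0.19 to 0.40), and that of 1422579_at was -0.04 (95% interval -0.49 to 0.42). The intervals of Hspd1 and Hspe1 overlap, and the difference between these genes was not tested.

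**Figure D3:**
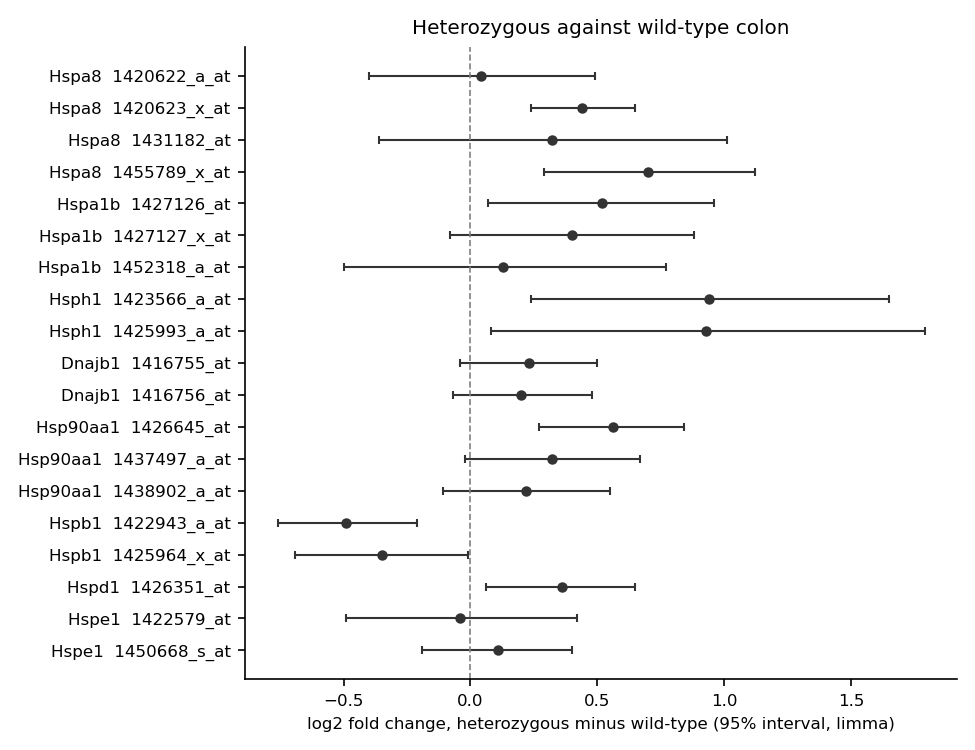
Log2 fold change of heterozygous minus wild-type colon for each member probe set, with limma's 95% interval, which is not adjusted for the number of probe sets. Hspb1 lies to the left of 0 at both probe sets, and Hsph1 has the widest intervals and the largest estimates.

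Hspa8 was then set against Hspb1 within each array, which removes any difference in overall scale between arrays. The log2 ratio of the brightest probe set of each gene was centred on its wild-type mean, since levels of different probe sets cannot be compared. It was -0.03, 0.20 and -0.16 in wild-type replicates 1 to 3 and 0.87, 1.12 and 0.80 in heterozygous replicates 1 to 3. All heterozygous arrays lay above all wild-type arrays, by a gap wider than the spread within either genotype. The ratio was higher by 0.93 in heterozygous colon (SD 0.18 in wild-type and 0.17 in heterozygous, n = 3 each; exact two-sided permutation p = 0.1, the smallest possible). Leaving out each array in turn gave 0.83 to 1.03. The pair was chosen with earlier results of these arrays known, so this difference is not independent evidence of its direction.

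With every probe set of the pair, 8 ratios could be formed, and all 8 were higher in heterozygous colon, from 0.39 to 1.19. The groups did not overlap for 5 of the 8. The exact permutation p ran from 0.1 to 0.4. The smallest ratios were those of the Hspa8 probe set 1420622_a_at, for which heterozygous replicate 3 was within the wild-type range. The 8 ratios share probe sets and arrays and are not separate tests.

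**Figure D4:**
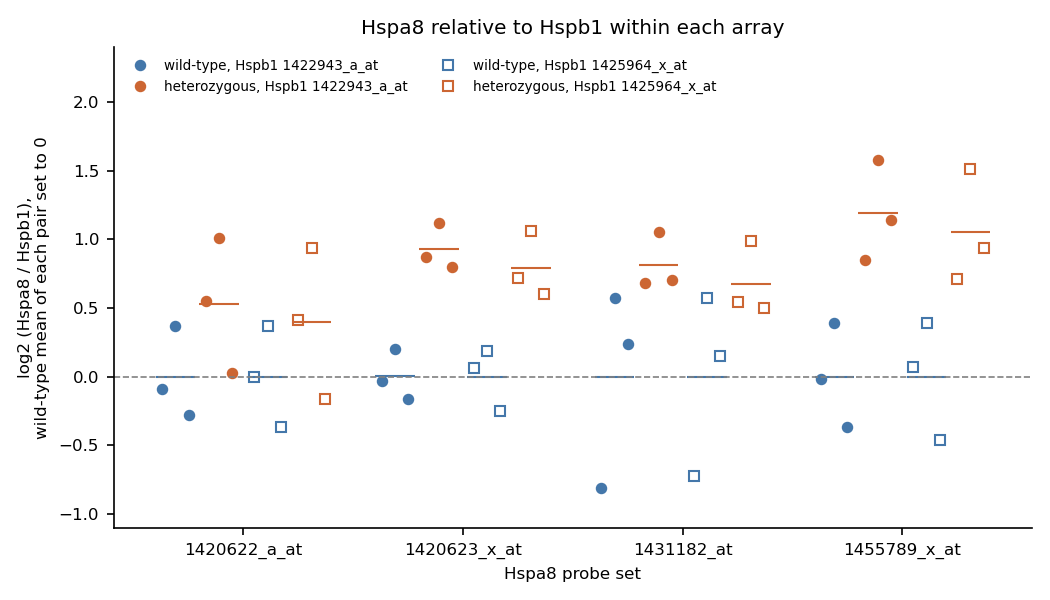
Log2 ratio of Hspa8 to Hspb1 in each array, for each Hspa8 probe set (horizontal axis) with each Hspb1 probe set (filled or open markers), the wild-type mean of each ratio set to 0 and lines at group means. The heterozygous arrays (orange) are clear of the wild-type arrays (blue) at 1420623_x_at and 1455789_x_at and overlap them at 1420622_a_at.

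The genes whose signal followed Hspa8 (1420623_x_at) most closely over the 6 arrays were Pbld1, Atf7ip and Gm20559. Pbld1 had a wild-type mean of 88.3, under the signal filter of 95.8, and was tested only because of its heterozygous values. Its likeness is therefore left out here. Atf7ip and Gm20559 had Pearson r of 0.986 and 0.984. For Hspb1 (1422943_a_at) they were Psen2, Ift27 and Traf6, with r of 0.993, 0.980 and 0.977. These genes were not alone: among the named ones of the 13576 tested probe sets, 112 exceeded r = 0.9 with Hspa8 and 89 with Hspb1. The count for Hspa8 includes Pbld1. The arrays share their genotype grouping and scaling, so these likenesses are a description only.

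None of the other chaperone genes passed the test. Of 65 tested genes from 8 lists of cytosolic and mitochondrial chaperones and their partners, 0 passed limma's adjusted threshold, with a lowest adjusted p of 0.686. At an unadjusted limma p under 0.05, 4 were higher and 1 lower, beside 3.15% and 2.18% of the 8243 tested genes. The log2 difference was positive for 46 and negative for 19, beside 51.5% and 48.5% of all genes, with a median of 0.06, beside 0.01 for all genes. No overlap between genotypes was seen for 3 higher and 4 lower, beside 5.58% and 5.07% of all.

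The partners of the members in the HSP90 cycle had mostly higher means in heterozygous colon. The HSP90 co-chaperones had positive differences for 10 of 11 and a median of 0.20, beside 51.5% and 0.01 for all tested genes. Stip1, which links HSP70 to HSP90, read 333.7, 351.8 and 340.9 in wild-type and 371, 496.3 and 471.2 in heterozygous arrays (log2 0.36, limma adjusted p = 0.814). The groups did not overlap, with heterozygous replicates 2 and 3 the highest. Chordc1, an HSP90 partner, read 775.2 to 1020.3 across wild-type colon and 805.6, 1564 and 1510.5 in heterozygous replicates 1 to 3 (log2 0.45), with replicates 2 and 3 highest, as for Hsph1. Ahsa2, a homologue of the activator of the HSP90 ATPase, had 0.41.

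Among HSP70 and HSP110 relatives, Hspa4l, an HSP110 related to Hsph1, read 290.3, 273.3 and 239.8 in wild-type and 297, 451.5 and 392.9 in heterozygous arrays (log2 0.47, limma adjusted p = 0.794). There was no overlap, although heterozygous replicate 1 was only just above wild-type replicate 1. Another tested Hspa4l probe set had 0.43, with overlapping groups. Hspa4, of the same subfamily, had -0.22 at its brightest probe set and 0.01 and 0.11 at the others, and Hspa2 had -0.16. Over these 5 genes 3 were positive, with a median of 0.10. Of 11 J proteins 7 were positive, with a median of 0.06. Both counts stand beside 51.5% positive over all tested genes. Dnaja1, a J protein partner of Hspa8, read 2224.7 to 2398.9 in wild-type and 2369.4, 4101.1 and 3113.2 in heterozygous arrays (log2 0.41, limma adjusted p = 0.860). Another tested Dnaja1 probe set had 0.23. Dnaja4 had 0.30 and Dnajc5 -0.13.

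All 4 tested small heat shock proteins other than Hspb1 had negative differences, beside 48.5% of all tested genes, with a median of -0.16. Hspb7, a muscle member, read 165.6, 152.4 and 202.4 in wild-type and 123.7, 82.3 and 113.9 in heterozygous arrays (log2 -0.63, limma adjusted p = 0.686). All heterozygous arrays were lower, and a second tested probe set gave -0.74. Cryab had -0.22 at its brightest probe set and 0.06 at another tested one, and Hspb8 had -0.11. As with Hspb1, the part of muscle content in these values was not tested; the smooth muscle markers had a median of -0.01, from -0.40 to 0.27.

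The remaining chaperone lists lay near 0. Nucleotide exchange factors and HSP70 regulators had a median of 0.02 over 9 genes, with St13 at 0.22, Bag4 at 0.13 and the Hsf1 target Bag3 at -0.11. The cytosolic chaperonin and prefoldin had 0.06 over 12 genes, with Cct8 at 0.20, Cct4 at 0.07 (and -0.31 to -0.15 at its other tested probe sets) and Pfdn2 at -0.14. Mitochondrial chaperones and proteases had 0.06 over 10 genes. Hspa9, the mitochondrial HSP70, read 1818.7 to 2041 in wild-type and 2101.1 to 2126.6 in heterozygous arrays (log2 0.13) at its brightest probe set. Another tested Hspa9 probe set had 0.03, with overlapping groups. Grpel2 had 0.20 and Htra2 0.17, with -0.18 at another tested Htra2 probe set. No heat shock factor was tested, since Hsf2 and Hsf4 lay under the signal filter. The 3 other genes listed with them had a median of 0.10, with Serpinh1 at 0.22, Hspb11 at 0.10 and Hsbp1 at 0.02. Another Hsbp1 probe set had -0.07.

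Neighbouring stress programmes were read for comparison. Of 18 endoplasmic reticulum chaperones and stress genes, 14 were positive with a median of 0.06. Creld2 had 0.50, Hspa5 0.32 (and 0.19 at another tested probe set) and Dnajb11 0.24. Of 13 immediate early genes, which respond to handling of tissue within minutes to hours, 9 were positive with a median of 0.09. Over all tested genes, 51.5% were positive and the median was 0.01. Jund had -0.51, Jun 0.30 and Fos 0.36, with Fos from 2091.6 to 4870.3 within wild-type arrays. The summed immediate early signal was 11892, 16813 and 14510 in wild-type and 18152, 12939 and 12920 in heterozygous arrays, so heterozygous replicate 1, and not replicates 2 and 3, was highest. None of the genes in either list passed limma's adjusted threshold, with lowest adjusted p of 0.814 and 0.580. At an unadjusted limma p under 0.05, 2 endoplasmic reticulum genes were higher and 0 lower, and 1 immediate early gene was higher and 1 lower, beside 3.15% and 2.18% of all tested genes.

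**Figure D5:**
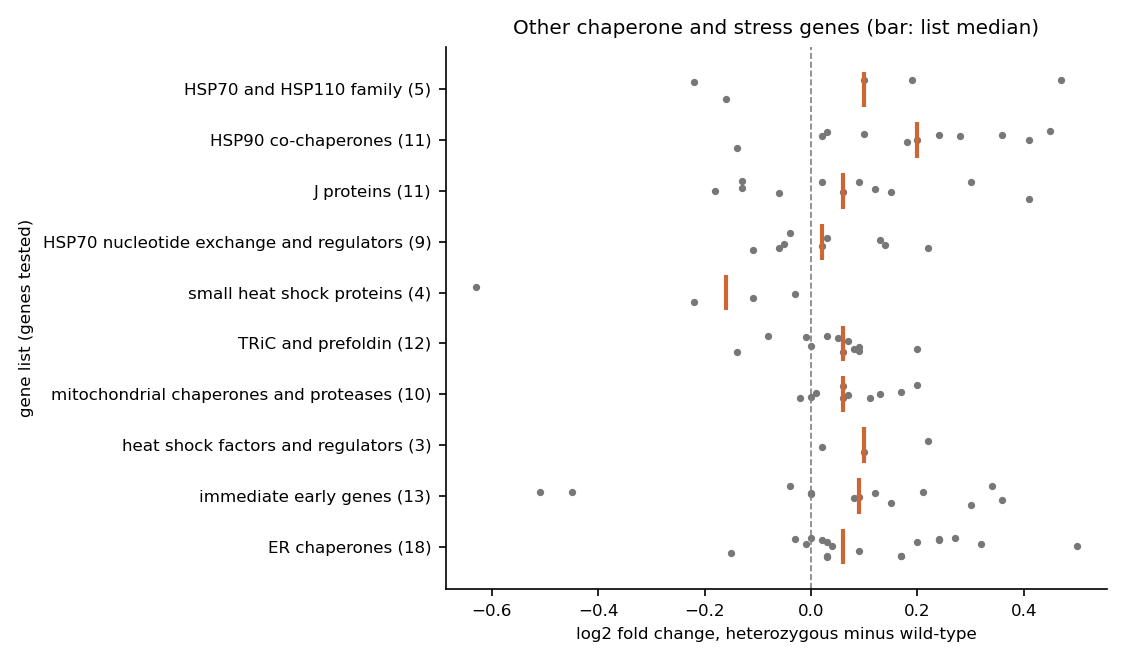
Log2 fold change of heterozygous minus wild-type colon for each tested gene (points) of 10 lists, with the number of genes in brackets and a bar at the median of each list. HSP90 co-chaperones have the highest median, 0.20, and the small heat shock proteins are all below 0.

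The tissue carried colonocyte and goblet-cell transcripts at high signal in every array, with Slc26a3 from 3253.8 to 4884.8 and Agr2 from 8863.5 to 12720.2. Apoa1, an ileal gene, ranged from 29.5 to 7711.8 over the arrays of both genotypes, and was highest in wild-type replicate 2 and, of the heterozygous arrays, in replicate 2, at 3949.1 against 43 and 377.9. Median log2 differences were 0.01 for colonocyte, -0.07 for goblet, 0.27 for macrophage and dendritic and -0.09 for B and plasma cell markers. The T-cell markers Cd3g and Ccl5 had 0.65 and 1.95. No T-cell median is given, because Cd3d passed the signal filter only through its heterozygous values. Ileal and endothelial medians are left out likewise, because Mttp and Cdh5 passed only through their wild-type values. The macrophage and dendritic markers Itgax, Fcer1g and Cd14 had 0.60, 0.53 and 0.45, Csf1r 0.27, Lyz2 0.20, Adgre1 0.09 and Cd68 -0.13. The summed signal of these 7 tested markers was 4450 to 5275 in wild-type and 4879 to 6489 in heterozygous colon. Their part in the chaperone values was not tested. No marker gene passed limma's adjusted threshold.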

How the data were processed

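The deposited table holds linear signal intensities for 22690 probe sets on 6 arrays. The submitters' processing notes name GCOS, the array maker's software; version and settings: not given in the sources used here. Every deposited array had a mean of 500.2 once 2% of probe sets were trimmed at each end, so each array had been scaled to a common level. The table has no background or detection values, and the number of arrays limits the precision.

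From these, 64 controls were left out. Symbols came from the platform annotation: 20380 probe sets have 1 symbol, 691 several and 1555 none. Values entered as log2(signal + 16), which understates differences of dim genes; probe sets under the 40th percentile of mean signal (95.8) were left out. limma 3.58.1 in R 4.3.3 was fitted on all tested probe sets (lmFit, eBayes with a variance trend), after the code was tested on simulated data. Single values were compared by an exact permutation test.

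Genes were represented by their brightest probe set. Besides the members, the 3 genes of smallest p in each list and the 3 most like Hspa8 and Hspb1 were named. Members, lists and tests were chosen with earlier results of these data known. Alternatives covered normalization, pseudocount, filter, variance trend, replicate block, averaged probe sets and each array left out.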

Additional observations from a re-analysis of the deposited data

How the results depend on the processing

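The count of member probe sets past limma's adjusted threshold was 0 under quantile normalization, pseudocounts of 1 and 64, no filter, a filter at the 60th percentile, no variance trend and the replicate block; with arrays left out it ran from 0 to 3, the 3 without heterozygous replicate 1. For the other chaperone genes it was 0 in each of these and with probe sets averaged. Unadjusted counts with arrays left out ran from 4 to 11 of 19 member probe sets (9 with all arrays); for those genes, 5 of 65 with all arrays, they ran from 1 to 8. Of 247 single values under alternatives, 237 kept direction and side of the threshold, 3 newly passed and 7 reversed, all with an array left out: Hspa8 1420622_a_at ran from -0.18 to 0.22, Hspa8 1431182_at from -0.08 to 0.54, Hspa1b 1452318_a_at from -0.23 to 0.33 and Hspe1 1422579_at from -0.21 to 0.13. The Hspa8 to Hspb1 ratio was 0.89 after quantile normalization, 0.80 with averaged probe sets and 0.93 with the replicate block (exact permutation p = 0.25, the smallest for 3 pairs). Same-numbered arrays correlated at -0.12, 0.50 and 0.05 in their deviations, and the other pairs ran from -0.48 to 0.42. Whether same-numbered arrays share more than a number cannot be told from these values. The block moved no adjusted count. Signal over background is unknown for these arrays.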
